A study of Mus musculus with 25 samples.

Results

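The cytoplasmic ribosome is built from RNA and a fixed set of proteins, and the genes of these proteins were followed through 4 histone marks in mouse fibroblasts. They were chosen by name, as every gene of the deposited table whose symbol is Rpl or Rps followed by a number (with an optional a or x), by a, or by p0, p1 or p2. The rule found 76 genes among the 24221 kept, 46 of the large (60S) subunit and 30 of the small (40S) subunit. No measured value entered the choice. Some other ribosomal protein genes, such as Rps3a1 and Fau, fall outside the rule. The 76 genes lie on 19 chromosomes, with 14 on chromosome 7 and 7 on chromosome 11, and 72 are autosomal and 4 X-linked (Rpl10, Rpl36a, Rpl39 and Rps4x).

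Chromatin came from mouse fibroblasts labelled tdMEFs. At D0 they grew in medium with fetal bovine serum at 20% oxygen, and at D4 and D8 they had spent 4 or 8 days in M9 medium at 5% oxygen, a treatment meant to turn them into neural stem-like cells. M9 medium has N2 and B27 supplements in place of serum and carries CHIR99021, LDN193189, A83-01, Hh-Ag1.5, retinoic acid, SMER28, RG108, Parnate and basic FGF. The design text of the series names a different cell population, ciNSLC, beside day 0, whereas each D0 sample is labelled tdMEFs, and the sample labels were followed. Medium, oxygen and agents changed together, so their parts cannot be told apart, and genotype, strain and age are not given in the labels used here. D0 also differed from D4 and D8 in sex chromosome signal, given below. A difference in the cells used therefore cannot be told apart from the treatment in any comparison with D0. Each mark was measured in 1 library per day, so there was no replicate and no test, every difference below describes these libraries only, and intervals cover counting error only.

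Ribosomal protein genes are transcribed by RNA polymerase II at high, closely matched rates in nearly all cells, and their mRNAs start with a run of C and T letters (the 5′ terminal oligopyrimidine tract) through which the Tor pathway sets how actively they are translated. H3K4me3 marks the start of active genes, H3K27ac active promoters and enhancers, and H3K4me1 enhancers and the flanks of promoters. H3K27me3 is placed by Polycomb complexes at silent genes and is spread over the inactive X chromosome of female cells.

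The libraries held 1582817 to 34856379 reads, and values are RPM, reads scaled to the size of the library. H3K27ac at D0 was the shallowest (1582817 reads), followed by H3K4me3 at D4 (2773333) and H3K27me3 at D0 (5111041). The median ribosomal protein gene had 244, 71.5 and 1702.5 reads of H3K4me3 at D0, D4 and D8, but 5, 60.5 and 46 reads of H3K27ac and 6, 25 and 15.5 reads of H3K27me3. Most fibroblast markers kept H3K4me3 on each day. The 8 (Col1a1, Col1a2, Col3a1, Thy1, Twist1, Prrx1, Pdgfra and S100a4) summed to 302, 391 and 541 RPM at D0, D4 and D8. Of these, 8, 7 and 7 were at or above the median of the mark, with S100a4 the lowest. The 7 neural stem and progenitor markers summed to 16.6, 34.8 and 102 RPM, with 0, 2 and 6 at or above it. Summed over all autosomal genes, H3K4me3 was 2.87 times its D0 level at D8. Of 5 blood markers, 0 reached the median of the mark on any day. Of 4 endothelial markers 0, 1 and 1 reached it, and of 4 epithelial markers 0, 0 and 2. They summed to at most 20.5 and 21.7 RPM. The D0 chromatin differed in its sex chromosomes. The Y-linked genes Ddx3y, Eif2s3y, Kdm5d and Uty had 10.9 to 15.8 RPM of H3K4me3 at D0, 6.13 to 8.29 at D4 and 9.18 to 10.5 at D8, while the median of all genes went from 3.48 to 5.41 and 11.1. In H3K27me3 the median of these 4 Y-linked genes was 1.27, 0.163 and 0.392 RPM, and that of all X-linked genes 0.783, 1.79 and 1.92 RPM. All autosomal genes had 1.76, 1.74 and 1.83 RPM. The H3K4me1 median of the 4 was also lower after D0, with 1.47, 0.588 and 0.873 RPM. Summed values at D8 against D0 are therefore also given for the 72 autosomal genes, which does not remove a difference in the cells used.

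The region in which reads were counted around each gene is not given in the sources used here. How values went with gene length differed by mark: from genes below the first quartile of length (median 1131 bases) to those above the last (85209 bases), the median was 1.23 and 26.0 RPM for H3K4me3 at D8 but 1.74 and 1.90 RPM for H3K27me3 at D4. Among the 76 genes, whose lengths ran from 982 bases (Rps27) to 11774 bases (Rps15a), length and H3K4me3 at D8 had a Spearman rho of 0.17. Levels of different genes are set side by side on this per-gene scale and are not per length. Rps27 has the same value as its retrotransposed copy Rps27rt in all 12 libraries, so its reads cannot be assigned to 1 gene.

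Sequence around the start is shown for the genes with the highest and lowest mean H3K4me3 (Rpl4 and Rpl9 against Rpl36a) and with the largest and smallest change in this mark from D0 to D8 (Rpl38 against Rps4x and Rpl24), since H3K4me3 is read there. Rpl36 and Rpl29 also ranked among these and are named only. Each line runs 5′ to 3′ on the gene's strand, from 100 bases before an annotated transcript start to 20 bases into the transcript, in RefSeq's GRCm38.p6. For Rpl38 that start lies inside the gene, which begins at base 114667818. Capitals mark the letters CCGGAAG, the core read by ETS family factors, the letters GGGCGG of SP and KLF factors or their complement, the letters TATAAA (found in TATA boxes, but here, in Rpl36a, just inside the gene), the letters CCAAT read by NFY, and the run of at least 6 C or T letters over the first base. The windows are chr9:64173287-64173406 (plus strand) for Rpl4, chr5:65391412-65391531 (minus) for Rpl9, chrX:134585554-134585673 (plus) for Rpl36a, chr11:114668480-114668599 (plus) for Rpl38, chrX:102189372-102189491 (minus) for Rps4x and chr16:55966175-55966294 (plus) for Rpl24.
Rpl4: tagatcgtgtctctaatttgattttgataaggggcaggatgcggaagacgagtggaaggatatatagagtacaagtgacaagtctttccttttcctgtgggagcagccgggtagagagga
Rpl9: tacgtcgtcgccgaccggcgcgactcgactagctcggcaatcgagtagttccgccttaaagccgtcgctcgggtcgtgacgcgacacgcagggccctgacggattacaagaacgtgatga
Rpl36a: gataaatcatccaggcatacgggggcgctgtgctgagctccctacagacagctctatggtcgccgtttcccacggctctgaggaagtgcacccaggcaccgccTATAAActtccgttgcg
Rpl38: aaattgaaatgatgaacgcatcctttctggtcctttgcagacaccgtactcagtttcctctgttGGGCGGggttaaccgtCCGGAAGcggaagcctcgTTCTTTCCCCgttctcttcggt
Rps4x: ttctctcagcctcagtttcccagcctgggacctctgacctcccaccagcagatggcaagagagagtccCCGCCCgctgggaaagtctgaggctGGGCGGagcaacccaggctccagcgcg
Rpl24: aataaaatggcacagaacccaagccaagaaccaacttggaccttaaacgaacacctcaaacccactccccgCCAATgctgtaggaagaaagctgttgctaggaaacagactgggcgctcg

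The table of start windows held 56 of the 76 genes, in 66 windows of 300 bases. On either strand, CCGGAAG occurred in 24 windows (36.4%) against 8.86% of all 32851 windows, AAGATGG (YY1) in 11 (16.7%) against 6.34%, and GGGCGG in 40 (60.6%) against 35.7%. A run of at least 6 C or T letters over the annotated first base, on the gene's strand, occurred in 19 windows (28.8%) against 7.25%. TATAAA was less frequent than over all windows, with 6 (9.09%) against 13.6%, CCAAT was close to them with 21 (31.8%) against 37.4%, and the E-box CACGTG occurred in 8 (12.1%) against 7.15%. Windows of 1 gene can share letters, a CCGGAAG can overlap an AAGATGG by AAG, and a match is a stretch of letters, not a bound site. The 23 genes with CCGGAAG had a median of 18.1, 27.0 and 49.3 RPM of H3K4me3 at D0, D4 and D8, and the 33 without it 21.3, 26.0 and 49.6 RPM. The median log2 difference from D0 to D8 was 1.35 with the motif and 1.21 without it. The 6 genes with TATAAA had a lower median H3K4me3 at D8 than the 50 without it, 36.7 against 50.2 RPM. The 6 with CACGTG had a higher one than the 50 without it, 61.5 against 48.3 RPM. Both sets are small.

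All 76 ribosomal protein genes carried H3K4me3 above the median of all genes on each day, and 75 of the 76 had more RPM at D4 than at D0 and more again at D8. In the order D0, D4, D8, used for all sets of 3 values here, their median was 19.3, 25.8 and 48.8 RPM, with ranges of 8.79 to 41.5, 10.5 to 50.1 and 17.3 to 90.1. The exception, named after its value was seen, was Rpl10a of the large subunit, with 12.7, 12.3 and 35.7 RPM. Summed over the 76 genes, H3K4me3 was 1.35 times its D0 level at D4 (95% counting interval 1.31 to 1.39) and 2.47 times at D8 (2.43 to 2.50). All autosomal genes had larger ratios, 1.51 and 2.87. Among genes whose larger value reached the median of the mark (5.41 RPM), 94.9% were higher at D4 than at D0. By the same rule 99.01% were higher at D8 than at D4. Neither the rise nor the count of 75 was therefore particular to the 76. Values of all genes summed to 18.8%, 28.5% and 53.9% of the reads of the D0, D4 and D8 libraries. The cause of this difference between libraries was not tested. In bulk chromatin a higher mark per cell and a larger share of cells that carry it cannot be told apart.

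Rpl4, a large-subunit protein that lines the exit tunnel, had the highest mean H3K4me3, with 41.5, 50.1 and 86.1 RPM. It ranked above 99.8%, 98.7% and 98.5% of all genes. Rpl9, of the large subunit, had 31.0, 43.3 and 78.6 RPM, and Rpl7, of the same subunit, 28.1, 34.6 and 90.1 RPM, the highest value of the 76 at D8. The lowest were Rpl36a, with 8.79, 15.1 and 17.3 RPM, and Rpl36, with 8.79, 10.5 and 25.7 RPM. Even these lay above 54.4% of all genes on every day. The order of the genes changed little: Spearman's rho across the 76 was 0.81 between D0 and D4, 0.80 between D0 and D8 and 0.84 between D4 and D8, pairs that share libraries.

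**Figure D1:**
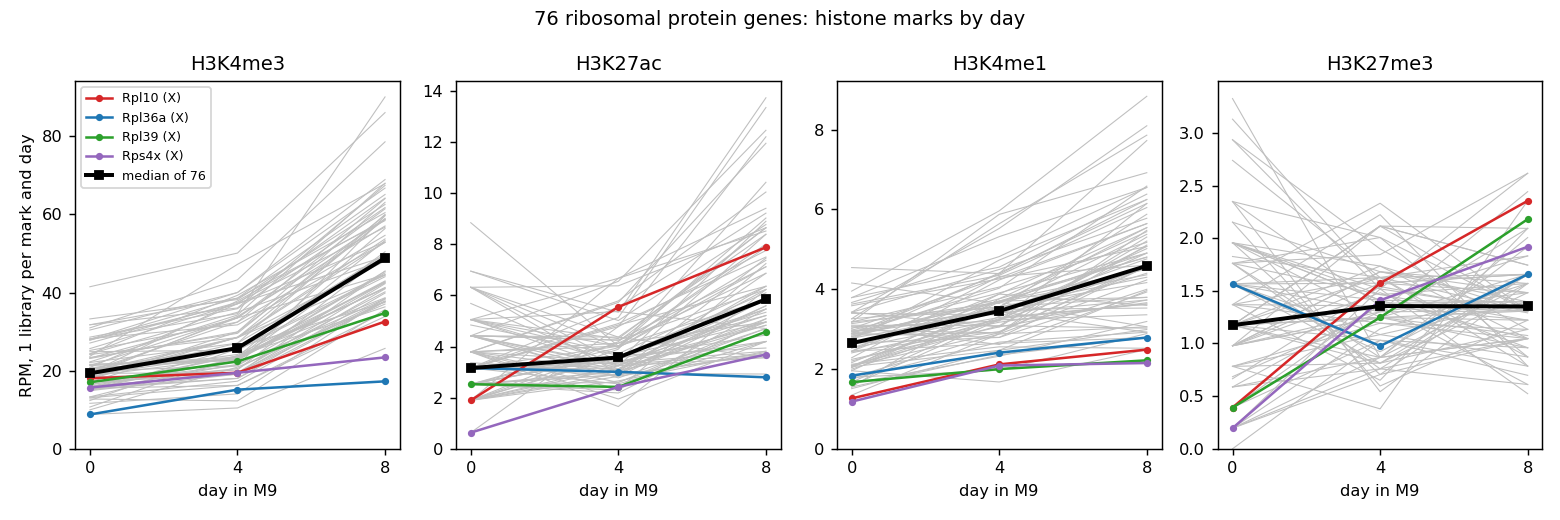
RPM of each of the 76 ribosomal protein genes (grey lines) by day in M9 medium, 1 panel per mark and 1 library per point, with the 4 X-linked genes in colour and the median in black. The H3K4me3 median goes from 19.3 to 25.8 and 48.8 RPM, while the H3K27me3 median stays between 1.17 and 1.36 RPM.

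The H3K4me3 difference was smaller than that of most compared genes. Log2 differences were taken after adding a pseudocount to both values (1.44 RPM for H3K4me3, the 25th percentile of its values above 0), and a gene was compared if its larger value reached the median of the mark (5.41 RPM). All 76 passed. From D0 to D8 their median log2 difference was 1.27, against 1.51 over all 13401 compared genes, and 62 of the 76 lay below that median. From D0 to D4 it was 0.35 against 0.60, with 59 below, and from D4 to D8 0.84 against 0.93, with 48 below. On autosomes alone the medians were 1.27 for 72 members and 1.52 for all genes at D8, and 0.35 and 0.60 at D4, against D0. At least 2-fold higher H3K4me3 was found at D8 against D0 in 66 of the 76, where 90.6% of all compared genes passed, at D4 against D0 in 1 (13.6% of all genes) and at D8 against D4 in 19 (40.9%). None of the 76 was at least 2-fold lower in any of these, against 0.0597%, 0.243% and 0.0596% of all genes. Those shares are close to or below the background, so the count of 66 is not a result about ribosomal protein genes.

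Their rank among all genes was lower after D0, with a median percentile of 89.6 at D0, 84.7 at D4 and 83.6 at D8, and the number above the 90th percentile was 36, 26 and 23. After quantile normalization, which gives the 3 libraries the same distribution, the median log2 difference was -0.24 at D4 and -0.25 at D8 against D0, and 14 of the 76 were above 0 at D8. On that scale, 0 of the 76 were at least 2-fold higher at D8 (5.88% of all genes) and 1, Rps4x, at least 2-fold lower (1.67%). Relative to the median of all compared genes, 0 were at least 2-fold higher (1.84%), and at D8 against D4 after quantile normalization 0 were (1.03%). The lower position depends on the comparison genes: with no filter on low values, the members' median D8 difference lay 0.22 above that of all genes.

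**Figure D2:**
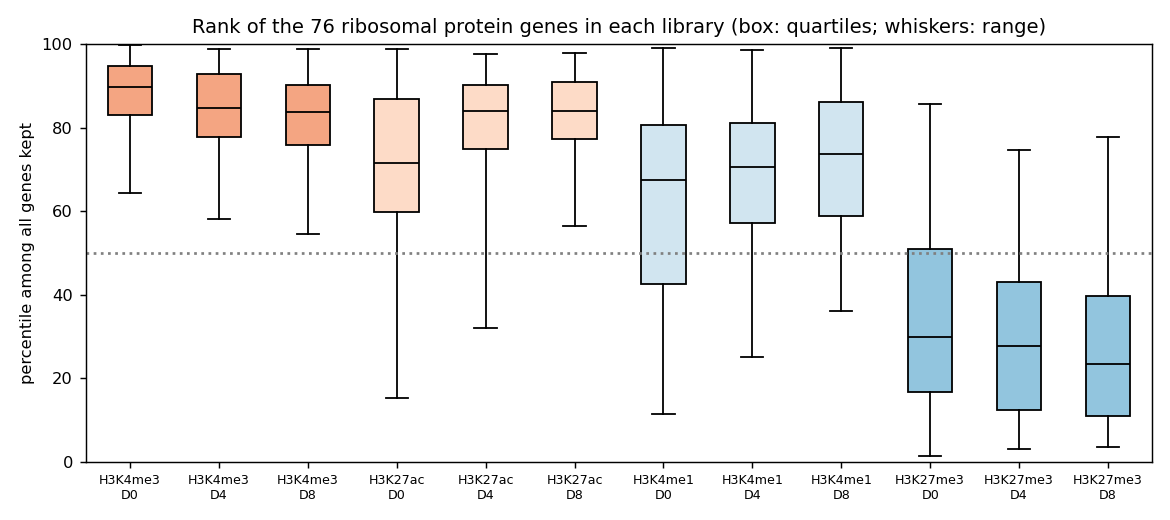
Percentile of the 76 ribosomal protein genes among all 24221 genes in each of the 12 libraries (box, quartiles; bar, median; whiskers, range), with the middle of all genes dotted. The median is 89.6, 84.7 and 83.6 for H3K4me3, is 71.6, 83.9 and 83.9 for H3K27ac, and stays below 30 for H3K27me3.

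**Figure D3:**
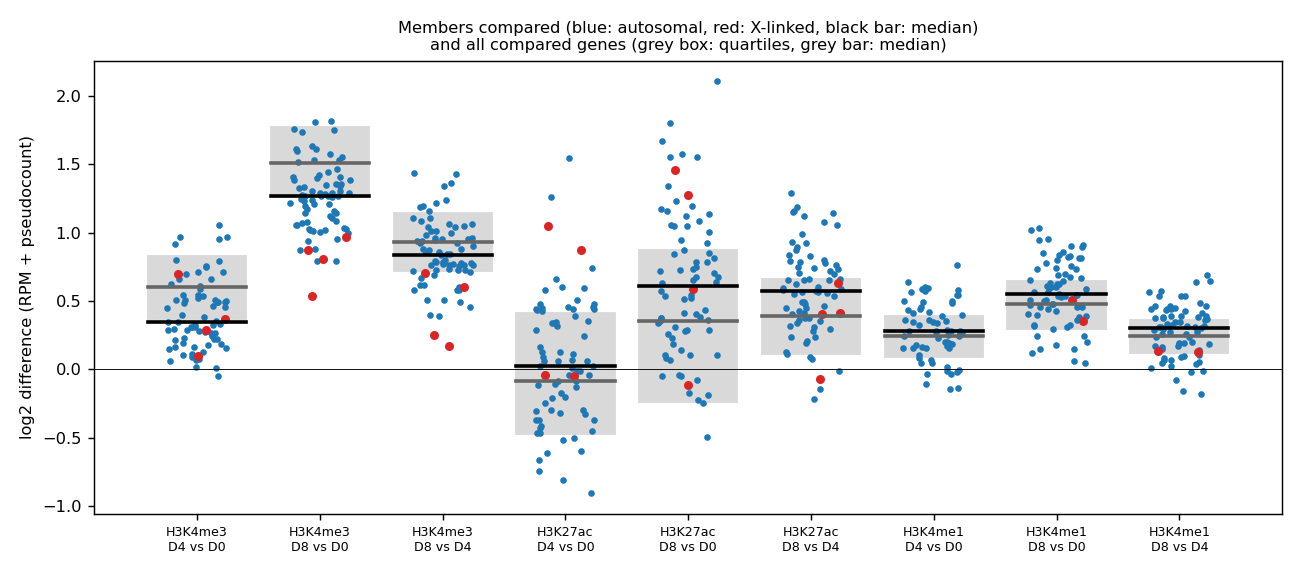
Log2 difference of each compared ribosomal protein gene (blue, autosomal; red, X-linked; black bar, median) for 3 marks and 3 comparisons, over the quartiles (grey box) and median (grey bar) of all compared genes. The black bar lies below the grey one for H3K4me3 (1.27 against 1.51 at D8 against D0) and above it for H3K27ac (0.61 against 0.35).

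Single genes differed in the size of the H3K4me3 difference. Rpl38, a large-subunit protein needed in mice for the translation of Hox mRNAs, had 13.3, 22.7 and 50.5 RPM, a 3.80-fold difference from D0 to D8 (3.24 to 4.47). Rpl29, whose loss slows growth in mice, had 10.7, 23.8 and 41.1 RPM, a 3.85-fold difference (3.22 to 4.62), and was the 1 gene at least 2-fold higher already at D4. Both were higher at each later day, and their intervals did not overlap between days. The next were Rpl19 (17.7, 29.9 and 63.1 RPM), Rps15 (9.98, 20.9 and 37.1) and Rps7 (12.4, 25.6 and 44.6), with log2 differences of 1.75, 1.75 and 1.74. At the other end, Rps4x had 15.7, 19.5 and 23.4 RPM, a 1.49-fold difference (1.28 to 1.75). Rpl24, of the bridge between the subunits, had 27.9, 37.1 and 49.3 RPM, 1.77-fold (1.57 to 1.99), and Rps9 24.9, 25.2 and 44.1 RPM, 1.77-fold (1.57 to 2.01). The intervals of these 3 did not overlap with those of Rpl38 and Rpl29, but the genes were picked as the extremes of the 76, so this is no test of the spread. Under 2-fold on the log2 scale with pseudocount were 10 genes, these 3 with Rpl10, Rpl36a, Rpl39, Rpl3, Rps12, Rps24 and Rps3. All 4 X-linked genes were among them.

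The subunits had similar medians. The 46 large-subunit genes had a median log2 difference in H3K4me3 from D0 to D8 of 1.27 and the 30 small-subunit genes of 1.26. Rpl5 and Rpl11, which with 5S RNA form a particle that restrains Mdm2 when ribosome assembly fails, had 23.2, 33.5 and 58.8 RPM and 17.1, 21.3 and 42.6 RPM, differences of 2.53-fold (2.24 to 2.87) and 2.49-fold (2.16 to 2.89). Their intervals overlap throughout. Rplp0 and Rplp1, of the stalk that recruits elongation factors, had 15.5, 16.2 and 33.9 RPM and 19.01, 24.2 and 42.5 RPM, or 2.18-fold (1.88 to 2.55) and 2.24-fold (1.95 to 2.57).

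Several of these genes are mutated in human Diamond-Blackfan anaemia, a failure of red cell production. Rps19, the most often affected, had 20.0, 32.5 and 64.1 RPM of H3K4me3, 3.21-fold from D0 to D8 (2.82 to 3.67). Rps7 differed by 3.61-fold (3.06 to 4.29) and Rps29 by 2.53-fold (2.17 to 2.97, from 14.8 over 26.0 to 37.5 RPM). Rpl35a, Rps10 and Rps26 had 2.41-fold (2.12 to 2.76), 2.40-fold (2.07 to 2.78) and 2.09-fold (1.84 to 2.39), and Rps24 1.98-fold (1.73 to 2.28). These genes therefore spread over most of the range of the 76. Among genes with a second role, Rps6, the substrate of the S6 kinases, had 19.3, 33.5 and 61.5 RPM (3.18-fold, 2.78 to 3.65) and Rps3, also a DNA repair factor, 24.3, 35.0 and 48.4 RPM (1.99-fold, 1.76 to 2.26). Rpsa, also a laminin receptor, had 16.1, 19.1 and 45.5 RPM, Rps27a, which encodes ubiquitin fused to a ribosomal protein, 31.8, 38.6 and 65.1 RPM, and Rpl13a, in human cells part of an interferon-regulated complex on mRNAs, 31.8, 36.1 and 67.4 RPM. The remaining fixed examples lay between these. Rpl22 had 17.9, 20.2 and 49.6 RPM, Rpl32 19.8, 28.5 and 52.9 RPM, and Rps25 23.7, 47.2 and 67.9 RPM. Rps25, needed for several viral internal ribosome entry sites, had more of its difference before D4 than after it.

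H3K27ac on the ribosomal protein genes was higher at D8 than on either earlier day. The median was 3.16, 3.57 and 5.85 RPM, with ranges of 0.632 to 8.84, 1.65 to 6.67 and 2.80 to 13.7. The sum over the 76 was 1.03 times its D0 level at D4 (0.934 to 1.14) and 1.78 times at D8 (1.61 to 1.96), while the autosomal 72 had ratios of 1.01 (0.916 to 1.12) and 1.76 (1.59 to 1.95) and all autosomal genes 0.991 and 1.48. D8 exceeded D4 in 72 of the 76 genes (81.0% of all compared genes) and D0 in 66 (66.2%), but D4 exceeded D0 in only 40 (45.3%). Their median percentile among all genes was 71.6 at D0 and 83.9 at D4 and D8, and the number above the median of all genes was 63, 74 and 76. The D0 library held 5 reads for the median member, and the correlation of member levels between D0 and D4 was 0.24, against 0.63 between D4 and D8.

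The median log2 difference in H3K27ac was 0.03 from D0 to D4, against -0.09 over all compared genes, 0.61 from D0 to D8 against 0.35, and 0.57 from D4 to D8 against 0.39, with 48, 51 and 55 of the 76 above the median of all genes. At least 2-fold higher were 3 members at D4 against D0 (5.73% of all genes), 20 at D8 against D0 (19.9%) and 8 at D8 against D4 (7%), and 0 were at least 2-fold lower (3.85%, 2.32% and 0.0324%). The share of 20 in 76 is near that of all genes. After quantile normalization the count was 7 (6.93%), and relative to the median of all compared genes also 7 (9.82%). The D8 against D4 comparison does not use the shallow D0 library. Thinned to equal depth, however, the D4 against D0 excess over all genes was 0, and after quantile normalization the D8 against D4 excess was -0.0045.

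Rps19 had 3.16, 5.14 and 13.4 RPM of H3K27ac, a 2.60-fold difference from D4 to D8 (1.94 to 3.49). Rpl19, highest of the 76 at D8, had 6.95, 5.34 and 13.7 RPM, 2.57-fold from D4 to D8 (1.92 to 3.42). In both the D8 value was above the earlier ones. For Rpl19, however, the D0 interval (3.47 to 12.4 RPM, 11 reads) overlaps that of D8 (11.3 to 16.6 RPM). Both genes were among the 3 highest means of the 76, so this is no test of a difference. Rpl9 (1.90, 4.19 and 8.65 RPM) and Rpl41 (1.90, 6.67 and 8.52 RPM), each with 3 reads at D0, were, like Rps19, among the 5 largest log2 differences from D0 to D8. At the low end Rps20 had 8.84, 4.01 and 5.85 RPM, a ratio of 0.661 from D0 to D8 (0.357 to 1.30), and of 0.454 from D0 to D4 (0.253 to 0.874), from the highest D0 value of the 76 and 14 reads there, so as a selected extreme its interval is too narrow. Rpl12 had 6.32, 2.95 and 5.09 RPM, Rps28 4.42, 4.37 and 3.56, Rps23 4.42, 3.31 and 3.69, and Rpl22 4.42, 2.83 and 3.76. The D0 to D8 intervals of these 4 include 1.

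H3K4me1 on the ribosomal protein genes was higher at D8 than at D0 in 76 of the 76 (93.1% of all compared genes), and higher at each later day in 62. Of all compared genes, 84.9% were higher at D4 than at D0 and 89.8% at D8 than at D4. The median of the 76 was 2.65, 3.45 and 4.59 RPM, with ranges of 1.18 to 4.54, 1.67 to 5.96 and 2.15 to 8.83. The sum over the 76 was 1.35 times its D0 level at D4 (1.30 to 1.39) and 1.79 times at D8 (1.73 to 1.85), with 1.34 (1.30 to 1.39) and 1.79 (1.73 to 1.85) for the autosomal 72 and 1.19 and 1.43 over all autosomal genes. Without a filter, the median log2 difference was 0.28 at D4 and 0.54 at D8 against D0. The filter passed 66, 74 and 74 of the 76, and 0, 2 and 0 were at least 2-fold higher at D4 against D0, D8 against D0 and D8 against D4 (0.0947%, 2.38% and 0% of all genes), with 0 lower. The 2 were Rps10, with 2.04, 3.55 and 5.88 RPM (2.89-fold, 2.10 to 4.04), and Rpl28, with 1.55, 3.76 and 4.80 RPM (3.10-fold, 2.16 to 4.56). Rps12 was the highest of the 76, with 3.95, 5.96 and 8.83 RPM, and lay above 99.1% of all genes at D8. Rps28, of the small subunit, had 3.26, 5.64 and 7.86 RPM. The smallest differences were in Rpl3 (2.77, 3.44 and 2.92 RPM), the large-subunit protein at the peptidyl transferase centre, and in Rps19 (2.85, 3.67 and 3.06 RPM), which was among the largest in H3K27ac. For both the D0 to D8 interval of the ratio includes 1.

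H3K27me3 was low on these genes. The median was 1.17, 1.36 and 1.35 RPM, against 1.76, 1.74 and 1.83 RPM over all genes, and 18, 10 and 12 of the 76 lay above the median of all genes. 0 of them lay above the 90th percentile on any day. The sum over the 76 was 0.999 times its D0 level at D4 (0.906 to 1.103) and 1.07 times at D8 (0.962 to 1.18). Over all 76 genes with no filter, 40 were higher and 36 lower at D8 than at D0, with a median log2 difference of 0.04, and member levels at D0 and D8 had a rho of -0.22. Counting error at a median of 6 reads at D0 is large beside these levels.

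The filter passed 29, 34 and 22 of the 76 for H3K27me3, each through its higher library, so single genes are given in place of a summary. At D8 against D0, 4 were at least 2-fold higher (4.22% of all compared genes), Rpl12, Rpl10, Rps4x and Rpl39, of which the last 3 are X-linked. Rpl12 had 0.196, 1.52 and 2.62 RPM, from 1, 28 and 30 reads, a 13.4-fold ratio with an interval of 2.22 to 546. At least 2-fold lower was 1 (1.54%), Rps13, with 2.93, 1.52 and 0.523 RPM and a ratio of 0.178 (0.0567 to 0.486). The next lowest, in order, were Rps23 (2.35, 1.36 and 0.610 RPM), Rpl30 (2.74, 1.63 and 0.872 RPM), Rplp1 (2.93, 1.90 and 1.13 RPM) and Rps29 (3.13, 1.57 and 1.66 RPM). All 4 were highest at D0. At D4 against D0, 0 were at least 2-fold higher (2.27%) and 1, Rpl7a, lower (1.4%), and at D8 against D4 1, Rpl18, was higher (0.103%) and 0 lower (0.00642%). Rps18 had 0 reads of H3K27me3 at D0, which by a floor of 3 reads, not the exact interval, allows up to 0.587 RPM, and 1.03 and 0.959 RPM later.

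Summed, the 4 X-linked genes had a higher H3K27me3 ratio and a lower H3K4me3 ratio from D0 to D8 than the 72 autosomal ones. Single genes overlapped. The largest log2 difference in H3K27me3 was that of the autosomal Rpl12 (1.39). In H3K4me3 only Rps4x (0.54) lay below the lowest autosomal gene (0.79). The H3K27me3 of the 4 X-linked genes summed to 2.54 RPM at D0 (13 reads), 5.21 at D4 and 8.11 at D8 (93 reads). That is a ratio of 3.19 from D0 to D8 (1.78 to 6.21), while the 72 autosomal genes had a ratio of 1.01 (0.911 to 1.13). The direction was the same over all genes: 967 X-linked genes had a ratio of 1.85 (1.798 to 1.91) and autosomal genes 1.04. Nearly all of that lay between D0 and D4, where the ratios were 1.69 and 0.961, against 1.095 and 1.086 from D4 to D8. It was not specific to H3K27me3, since from D0 to D4 all X-linked genes also had higher ratios than autosomal ones in H3K27ac (1.44 against 0.991), H3K4me1 (1.48 against 1.19) and H3K4me3 (1.63 against 1.51). Rpl10, a large-subunit protein that completes the 60S particle and is mutated in human T-cell leukaemia, had 0.391, 1.57 and 2.35 RPM (6.02-fold, 1.51 to 52.2). Rps4x, which has a Y-linked counterpart in humans and escapes X inactivation there, had 0.196, 1.41 and 1.92 RPM, and Rpl39, of the exit tunnel, 0.391, 1.25 and 2.18 RPM (5.57-fold, 1.39 to 48.5). These 3 were lowest at D0 and highest at D8. Rpl36a, the fourth, did not follow, with 1.57, 0.976 and 1.66 RPM.

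In H3K4me3 the 4 X-linked genes differed less between D0 and D8: their sum was 1.81 times its D0 level at D8 (1.68 to 1.96), against 2.49 (2.46 to 2.53) for the 72 autosomal genes. At D4 the ratios to D0, 1.28 (1.097 to 1.497) and 1.36 (1.32 to 1.398), had overlapping intervals. Rpl10 had 18.1, 19.5 and 32.6 RPM, Rpl39 17.0, 22.4 and 34.8 RPM, Rps4x 15.7, 19.5 and 23.4 RPM and Rpl36a 8.79, 15.1 and 17.3 RPM. All 4 lay below the median of the 76 on each day. Over the genome the median log2 difference from D0 to D8 was 1.35 for X-linked and 1.52 for autosomal genes, so a smaller X-linked difference was not limited to these 4. In H3K27ac the X-linked sum was 2.31 times its D0 level at D8 (1.31 to 4.43) and its interval overlaps that of the autosomal genes (1.76, 1.59 to 1.95). In H3K4me1 the 4 ran from 1.18 to 1.83 RPM at D0, 2.00 to 2.41 at D4 and 2.15 to 2.79 at D8, below the autosomal medians of 2.75, 3.53 and 4.70 RPM. From D4 to D8 the H3K4me3 sum of the 4 differed by a ratio of 1.41 (1.23 to 1.63), and that of the autosomal 72 by 1.84 (1.79 to 1.89). The 4 Y-linked genes above had a median of 11.5, 7.39 and 9.87 RPM of H3K4me3, lowest at D4. Whether the sex chromosome difference has a part in the X-linked values was not tested.

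**Figure D4:**
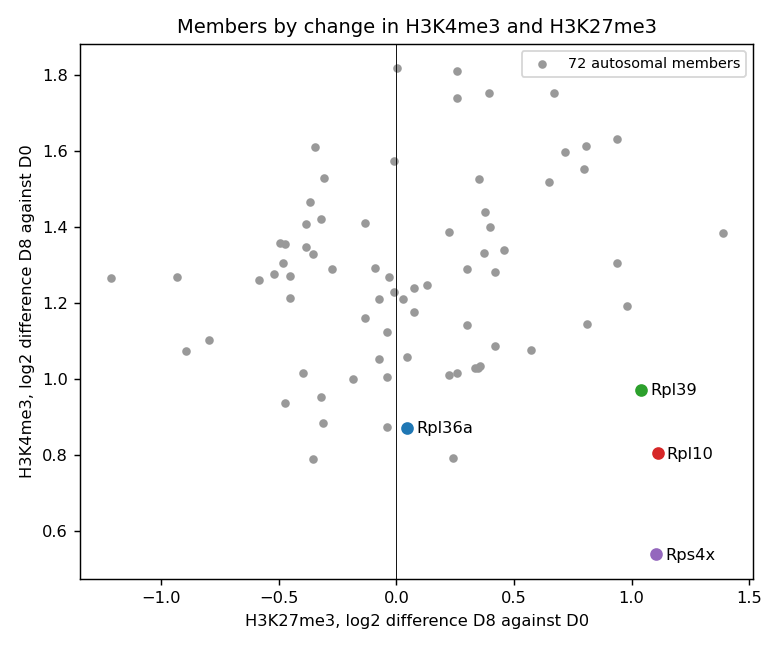
Log2 difference from D0 to D8 in H3K27me3 (horizontal) and H3K4me3 (vertical) for each of the 76 ribosomal protein genes, without the filter on low values, with the X-linked ones named. Rpl10, Rps4x and Rpl39 lie at the lower right, with H3K27me3 differences of 1.111, 1.105 and 1.040 and H3K4me3 differences of 0.804, 0.538 and 0.971.

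Across the 76 genes the 3 active marks had lower rank correlations with each other than over the whole table. At D8 Spearman's rho between H3K4me3 and H3K27ac was 0.54 among the 76 and 0.79 over all 24221 genes, and between H3K4me3 and H3K4me1 0.28 against 0.73. The 76 cover a narrow span of levels, with a highest value 5.22 times the lowest in H3K4me3 at D8. At D0 the rho of H3K4me3 with H3K27ac was 0.17 among the 76, at the depth of 5 reads per gene given above. H3K4me1 and H3K27me3 went the other way at D4, with 0.37 among the 76 and -0.09 over all genes. Points are genes of the same 2 libraries.

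Other genes of protein synthesis are given from 11 lists, by the same measure from D0 to D8. The list of initiation factors takes Eif symbols by a name rule, so it also holds genes such as Eif4ebp1 and Eif2ak2. Lists can share genes, such as Eif5a, which is also among the elongation factors. In H3K4me3 the median log2 difference was 1.41 for 77 mitochondrial ribosomal proteins, 1.42 for 50 translation initiation factors, 1.44 for 6 elongation factors, 1.36 for 35 nucleolar assembly factors, 1.33 for 15 genes of RNA polymerase I and its factors, and 1.22 for 20 cytosolic aminoacyl-tRNA synthetases. All of these medians lie below the 1.51 of all compared genes, as does that of the ribosomal protein genes. The number of genes below that median was 47 of 77, 30 of 50, 3 of 6, 26 of 35, 10 of 15 and 20 of 20. The 37 proteasome subunits had 1.30 (31 below), and 20 cell cycle genes 0.77 (17 below). Above it were 13 genes of Myc, Tor and translation control (1.74, 4 below), 10 other housekeeping genes (1.64, 3 below) and 8 ribosomal protein genes outside the name rule (1.55, 4 below). At least 2-fold higher were 70 of 77, 49 of 50, 5 of 6, 29 of 35, 14 of 15, 16 of 20, 36 of 37, 8 of 20, 13 of 13, 10 of 10 and 7 of 8 in the same order, beside 90.6% of all genes.

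The extremes of these lists were as follows. Mycn, a Myc family activator of ribosome production, had 5.23, 17.3 and 38.3 RPM of H3K4me3 (log2 difference 2.58), and Mycl 6.02, 10.5 and 37.4 RPM (2.38). Ubtf, which opens ribosomal RNA genes for RNA polymerase I, had 16.7, 35.0 and 85.9 RPM (2.27). Each was lowest at D0 and highest at D8. Tsr1, a maturation factor of the small subunit, had 18.9, 35.7 and 72.2 RPM (1.85), and Eef1a1, the factor that brings aminoacyl-tRNA to the ribosome, 16.2, 26.7 and 62.6 RPM (1.86). The lowest included Eef1g, with 29.5, 32.5 and 53.3 RPM (0.83), Pes1, with 23.0, 31.0 and 40.4 RPM (0.78), Dkc1, with 12.04, 12.3 and 21.4 RPM (0.76), and Rps6kb1, an S6 kinase, with 28.3, 33.5 and 61.7 RPM (1.09). In H3K27ac the median differences of the lists ran from -0.03 (cell cycle) to 1.17 (elongation factors), with 0.47 for mitochondrial ribosomal proteins and 0.61 for the 76 ribosomal protein genes.

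**Figure D5:**
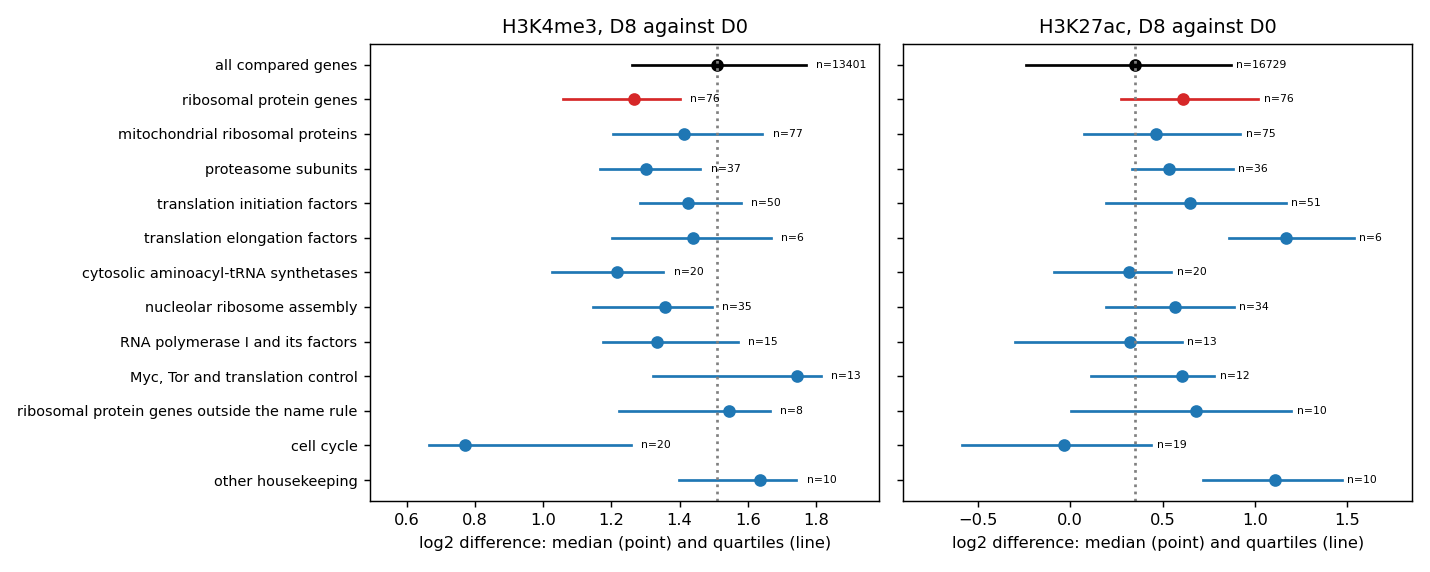
Median (point) and quartiles (line) of the log2 difference from D0 to D8 in H3K4me3 and H3K27ac for the ribosomal protein genes (red), 11 other gene lists (blue) and all compared genes (black, dotted line), with the number compared. The ribosomal protein genes lie at 1.27 in H3K4me3, left of the 1.51 of all genes, and at 0.61 in H3K27ac, right of 0.35.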

How the data were processed

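Histone mark chromatin immunoprecipitation was sequenced in single reads of 50 bases. The authors deposited 1 table of 24453 symbols. The deposited values are RPM, counts per gene scaled by the authors to the reads of the library, a unit read from the values since 93.5% to 94.7% of those in a library are whole multiples of 1 read within 0.02 reads, and the multiple gives each library's depth. Per the submitters' processing notes, CASAVA 1.8.4, Bowtie 1.1.0, SAMtools 0.1.19, bedtools and the mm10 build were used, with no roles given. Of 25 labelled libraries, 12 were used, and 13 (inputs and other cells) were not analysed here. Another 8 value columns matched no label and were not used. Symbols turned into dates (27) and genes at 0 throughout (205) were dropped. RefSeq (GRCm38.p6) matched 23172 symbols.

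Log2 differences used a pseudocount per mark, the 25th percentile of its positive values (1.44, 1.53, 1.63 and 1.30 RPM for H3K4me3, H3K27ac, H3K4me1 and H3K27me3), and a minimum in the larger library (5.41, 2.18, 2.49 and 1.76 RPM). The call was 2-fold. Intervals are 95% exact Poisson, or conditional binomial for ratios of unadjusted RPM, from the implied reads, and cover counting error only. Nothing says whether libraries came from separate cultures. Genes named were the 5 largest and 5 smallest D8 against D0 differences and the 3 highest and 3 lowest means per mark, the X-linked genes, 26 set genes and the 2 extremes at each end of each list, and any others were chosen after their values were seen. Some genes this rule names are not reported here. The genes and the 11 lists were chosen with earlier results of these data known. Python 3.11.15, pandas 2.3.3, numpy 2.4.6 and SciPy 1.17.1 were used, and the code was tested on simulated data. Alternatives were other pseudocounts, no filter, quantile normalization, median centring, equal depth, autosomes only and leaving out genes with shared values.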

Additional observations from a re-analysis of the deposited data

How the results depend on the processing

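The values compared here are the median log2 difference of the ribosomal protein genes minus that of all compared genes. In H3K4me3 it was -0.25 from D0 to D4, -0.24 from D0 to D8 and -0.09 from D4 to D8. It was below 0 in 6 of 7 alternatives, and with no filter it was 5.06e-05, 0.22 and 0.22, where genes with little signal join the comparison. With the pseudocount multiplied by 4 the D8 against D0 value was -0.14. In H3K27ac it was 0.11, 0.26 and 0.18. From D0 to D4 it was -0.021 with no filter and 0 at equal depth. From D4 to D8 it was -0.0045 after quantile normalization, 0.35 with no filter and 0.31 at equal depth, and from D0 to D8 it stayed above 0 in 7 of 7 alternatives. In H3K4me1 it was 0.03, 0.07 and 0.06, and with no filter 0.14, 0.26 and 0.18. In H3K27me3 it was -0.14, -0.32 and 0.14. These 3 values cover only the 29, 34 and 22 genes that passed the filter, each through its higher library, so they do not describe the 76. With no filter, over all 76, the difference was 0.019, -0.05 and -0.06. From D0 to D8 with the pseudocount divided by 4 it was -0.49, and from D4 to D8 it was 0.01 on autosomes and 0 at equal depth. The causes were not tested.

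Counts past 2-fold depend on the scale. For D8 against D0, 66 genes in H3K4me3 became 0 after quantile normalization or centring, 20 in H3K27ac became 7 under both and 3 with the larger pseudocount, and 2 in H3K4me1 became 19 with the smaller pseudocount. For D8 against D4, 19 in H3K4me3 became 9 with the larger pseudocount and 0 after quantile normalization, and 8 in H3K27ac became 27 at equal depth and 0 with the larger pseudocount. On autosomes 4 higher in H3K27me3 became 1. No paired analysis was possible because each mark and day has 1 library, and no replicate could be left out. Depth limits H3K27ac and H3K27me3 at D0 most, at 5 and 6 reads for the median gene.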

Other observations

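Ribosomal protein genes and copies outside the name rule fell into groups by level of H3K4me3. Fau, which encodes a small-subunit protein fused to a ubiquitin-like one, had 17.7, 26.7 and 58.0 RPM on D0, D4 and D8. Rps3a1, chosen after its values were seen, had 14.7, 19.8 and 45.4 RPM. The paralogs Rpl22l1 (16.6, 28.5 and 48.2 RPM), Rps27l (16.8, 28.5 and 60.8 RPM) and Rpl7l1 (20.3, 35.7 and 42.8 RPM) were in the same range. All 5 were highest at D8 and lay within the range of the 76 on each day. Other copies had little of the mark: Rpl3l, a muscle paralog of Rpl3, had 1.505, 0.901 and 0.990 RPM, Rpl10l, a testis paralog of Rpl10, 1.66, 2.16 and 0.717 RPM, and Rpl39l, also of the testis, 2.53, 0.721 and 1.29 RPM. These 3 stayed below the lowest of the 76 in each H3K4me3 library. Rps4l lay between, with 4.83, 4.69 and 8.52 RPM.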
